A study of Danio rerio with 6 samples.

Results

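The comparison set the tRNA reads of zebrafish embryos at the 256-cell stage (256cell) against those of embryos at the 1-cell stage (1cell). It used 2 of the 6 libraries of a tRNA sequencing series, chosen by their stage labels and not by any measured value. Members were all 38 amino acid and anticodon labels and all 3021 read sequences of the cytoplasmic table, and all 22 tRNAs of the mitochondrial table. Both libraries came from whole wild-type (WT) embryos of the TU strain, a laboratory zebrafish strain. Each library was a pool of about 50 to 100 embryos with no second library of its stage, so no difference below has a replicate check. RPM gives no amount per embryo, and in such pools fewer cells of a type and less RNA per cell cannot be told apart. This last limit concerns 256cell and the later stages, as a 1cell embryo holds 1 cell. The other 4 libraries, of the same genotype and strain, came from mature eggs and from embryos at sphere, shield and 24hpf (24 hours after fertilisation).

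Transfer RNAs carry amino acids to the ribosome, and the anticodon of each one reads the matching codons of the messenger RNA. A tRNA is cut from a longer transcript and receives the bases CCA at its 3′ end, where the amino acid is attached. In the zebrafish, the fertilised egg passes through a run of fast, nearly synchronous divisions on RNA and protein laid down by the mother, and the embryo begins broad transcription of its own genes later, around the midblastula transition. Mitochondria have a genome of their own that encodes a separate tRNA set for the proteins made inside them.

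Size-selected RNA was treated with ALKB enzymes, which remove some of the methyl groups that stop reverse transcription, and then sequenced. RPM (a read count over the library size) was the deposited unit, and a read counts once whatever its length. The 256cell library held 3324546 reads and was the smallest of the 6, and the 1cell library held 6094181 reads. Of these, 1877927 reads of 256cell and 2578858 reads of 1cell were in the cytoplasmic table, and 803279 and 1432257 were in the mitochondrial table. Nearly all counts of single mitochondrial tRNAs were even numbers, such as 414 and 416 for trnS2, which those of the cytoplasmic labels were not. Whether mitochondrial reads were counted more than once was not tested. If they were, the mitochondrial parts are too large and the mitochondrial intervals too narrow. The 1cell library stood apart in the reads placed in neither table, with 19.4% of the 256cell library, 34.2% of the 1cell library and 16.8% to 26.6% of the other 4 libraries in neither. The part of this gap in the differences below was not tested, and values of the egg library, the other one taken before the fast divisions, are given beside the main results. A count of 3 reads, the limit that a count of 0 allows, was worth 0.902 RPM at 256cell and 0.492 RPM at 1cell. All intervals are 95% intervals for counting error only, and reads copied by PCR are not independent molecules.

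The reads below carry the main differences. Each pair or group shows deposited reads of the cytoplasmic table that start and end at the same place and differ in the capital letters. They are written 5′ to 3′ in DNA letters, and substitutions count positions from 1 at the 5′ end of the printed read. Asn-GTT is shown because it had the largest difference of all compared anticodons, and its 3 other forms carry T10C, G11T or both.
Asn-GTT, lead form: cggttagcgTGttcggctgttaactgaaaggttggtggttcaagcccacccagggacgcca
Asn-GTT, T10C: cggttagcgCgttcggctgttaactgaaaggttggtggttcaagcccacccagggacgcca
Asn-GTT, G11T: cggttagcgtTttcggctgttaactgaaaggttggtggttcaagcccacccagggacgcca
Asn-GTT, T10C and G11T: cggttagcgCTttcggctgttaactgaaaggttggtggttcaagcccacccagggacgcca
Arg-ACG is shown because its T14G form was at least 2-fold lower and its lead form was not.
Arg-ACG, lead form: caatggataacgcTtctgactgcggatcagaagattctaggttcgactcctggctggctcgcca
Arg-ACG, T14G: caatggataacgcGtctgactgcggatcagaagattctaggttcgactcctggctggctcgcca
Gly-GCC holds the read with the largest difference upward, which carries G8A.
Gly-GCC, lead form: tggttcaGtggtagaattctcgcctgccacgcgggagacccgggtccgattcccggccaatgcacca
Gly-GCC, G8A: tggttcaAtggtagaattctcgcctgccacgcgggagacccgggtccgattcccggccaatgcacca
Gln-CTG, Lys-CTT and Glu-TTC are abundant tRNAs whose 2 forms differed between the stages by unequal amounts.
Gln-CTG, lead form: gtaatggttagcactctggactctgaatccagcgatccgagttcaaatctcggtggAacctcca
Gln-CTG, A57G: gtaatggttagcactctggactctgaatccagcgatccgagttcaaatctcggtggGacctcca
Lys-CTT, lead form: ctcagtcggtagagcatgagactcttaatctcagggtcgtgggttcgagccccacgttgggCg
Lys-CTT, C62T: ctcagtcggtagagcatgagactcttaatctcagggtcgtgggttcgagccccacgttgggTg
Glu-TTC, lead form: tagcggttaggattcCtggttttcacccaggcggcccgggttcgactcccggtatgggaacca
Glu-TTC, C16T: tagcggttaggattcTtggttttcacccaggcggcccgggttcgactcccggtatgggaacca
His-GTG is shown because it held most of the reads, and its rare forms moved in both directions.
His-GTG, lead form: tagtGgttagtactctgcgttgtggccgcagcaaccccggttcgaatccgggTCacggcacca
His-GTG, G5A: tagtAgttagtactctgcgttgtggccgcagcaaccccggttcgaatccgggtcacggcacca
His-GTG, T53C: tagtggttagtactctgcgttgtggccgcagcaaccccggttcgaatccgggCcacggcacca
His-GTG, C54G: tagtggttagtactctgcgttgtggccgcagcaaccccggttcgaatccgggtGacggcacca

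His-GTG, the tRNA for the histidine codons, supplied 492091 RPM at 256cell and 345533 RPM at 1cell. It held 87.1% of the cytoplasmic reads at 256cell (exact Clopper-Pearson interval 87.1 to 87.2) and 81.7% at 1cell (81.6 to 81.7). From egg to 24hpf its share was 89.1, 81.7, 87.1, 84.4, 84.7 and 89.0%, so 1cell was the lowest library of the series. The egg library held 591895 RPM of His-GTG, and against egg its log2 share ratio at 256cell was -0.03. All other cytoplasmic tRNAs together stood at 72776 RPM at 256cell and 77635 RPM at 1cell. The larger cytoplasmic total at 256cell, 564867 RPM against 423167 RPM at 1cell, was therefore made of His-GTG reads. This matters for every other tRNA, because the main measure is the share of the cytoplasmic total, on the log2(RPM + 1) scale. The median log2 ratio, 256cell over 1cell, of the 33 anticodons that averaged 10 RPM or more over both libraries was -0.48 by share and -0.06 in RPM. By share 28 of them were below 0 and 5 above, in RPM 21 were below and 12 above, and as shares of a total without His-GTG 15 of the remaining 32 were below and 17 above. The ratios stand 0.42 higher in RPM, 0.48 higher with median-ratio scaling and 0.51 higher in the total without His-GTG, so a ratio between -0.51 and 0 has no fixed direction.

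Asparagine, arginine, proline and methionine tRNAs each had a label at least 2-fold lower at 256cell than at 1cell. By share 4 of the 33 anticodons were at least 2-fold lower, which is 12.1% of them, and 0 (0%) were at least 2-fold higher. In RPM 3 were 2-fold lower (9.09%) and 0 higher (0%). The counting interval of the share ratio lay wholly on 1 side of 0 for 27 of the 33. These directions depend on the library that 256cell is set against. With egg in the place of 1cell, 24 of the 28 labels below 0 by share stood above 0. Of the 5 above 0, 1 stood below, which was His-GTG. With egg 3 labels were at least 2-fold higher and 1 lower. Against sphere, the next stage, the 4 labels lower by 2-fold were also below 0 by share. They stood at -1.44 for Asn-GTT, -0.53 for Arg-ACG, -0.33 for Pro-AGG and -0.16 for Met-CAT.

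Asn-GTT, which reads the asparagine codons, was lowest. It had 1038 RPM at 256cell and 3115 RPM at 1cell, or 3452 and 18986 reads. Its log2 ratio was -2.00 by share (counting interval -2.05 to -1.95) and -1.58 in RPM. The 1cell library was the high one among the early stages: from egg to 24hpf the level was 1154, 3115, 1038, 2666, 2398 and 408 RPM. By share, Asn-GTT at 256cell stood at 0.08 against egg and at -1.44 against sphere.

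Met-CAT, the methionine tRNA of chain elongation, had 15.3 RPM at 256cell and 37.6 RPM at 1cell, from 51 and 229 reads. The ratio was -1.66 by share (-2.18 to -1.27) and -1.24 in RPM. Pro-AGG, 1 of the 4 proline labels, had 49.0 RPM at 256cell and 106 RPM at 1cell, with ratios of -1.51 by share (-1.78 to -1.28) and -1.09 in RPM. Most of its RPM came from reads 1 base away from Pro-GGG reads, which are described below. Arg-ACG, the most abundant arginine label, had 2967 RPM at 256cell and 4508 RPM at 1cell. Its share ratio of -1.02 had an interval of -1.05 to -0.99, which spans the 2-fold line, and its RPM ratio was -0.60. These 3 also stood highest at 1cell among the first 3 stages, as Asn-GTT did. The egg library held 10.3 RPM of Met-CAT, 56.4 RPM of Pro-AGG and 1673 RPM of Arg-ACG. With egg in the place of 1cell the ratios were 0.77 for Met-CAT, 0.04 for Pro-AGG and 1.06 for Arg-ACG.

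**Figure D1:**
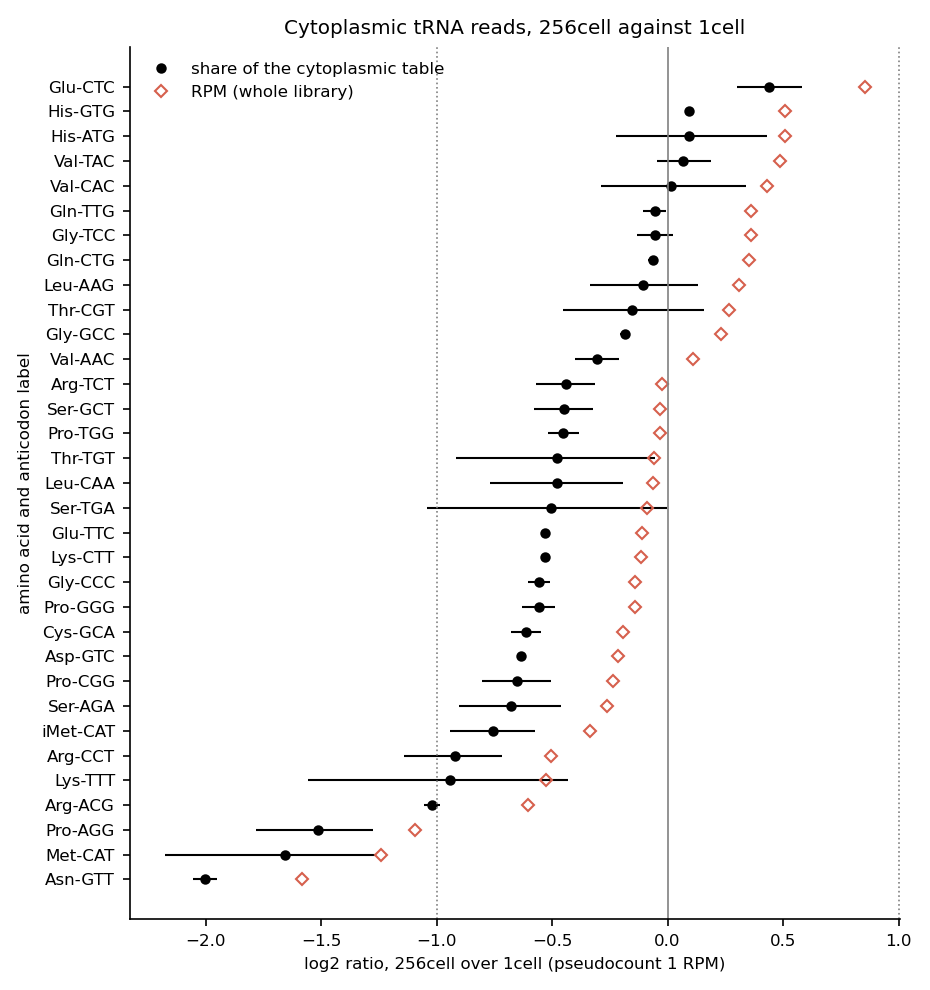
Log2 ratio of 256cell over 1cell for the 33 anticodons that averaged 10 RPM or more (1 library per stage). Filled circles are shares of the cytoplasmic total with 95% counting intervals and open diamonds are RPM, on the log2(RPM + 1) scale, and dotted lines mark 2-fold. Asn-GTT is lowest at -2.00 and Glu-CTC highest at 0.44 by share, and each diamond lies 0.42 to the right of its circle.

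Glu-CTC, the rarer of the glutamate labels, was highest. It had 248 RPM at 256cell and 137 RPM at 1cell, a ratio of 0.44 by share (0.30 to 0.58) and 0.85 in RPM. Egg stood at 282 RPM, so 1cell was the low library among the first 3 stages, and against egg the ratio was 0.05. His-GTG followed at 0.09 by share (0.09 to 0.10) and 0.51 in RPM, and the valine labels Val-TAC and Val-CAC at 0.07 (-0.05 to 0.19) and 0.01 (-0.29 to 0.34) by share. His-ATG was also at 0.09, and its 3 sequences are described with the single-base neighbours of His-GTG.

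The abundant tRNAs next to His-GTG differed little in RPM. Asp-GTC, for aspartate, had 15733 RPM at 256cell and 18276 RPM at 1cell (share -0.63, RPM -0.22). Lys-CTT, for lysine, had 14496 RPM at 256cell and 15707 RPM at 1cell (share -0.53, RPM -0.12). Glu-TTC, for glutamate, had 12030 RPM at 256cell and 13009 RPM at 1cell (share -0.53, RPM -0.11). In a total without His-GTG these 3 stood at -0.12, -0.02 and -0.02, and against egg at 0.50, 0.45 and 0.38 by share.

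Gln-CTG, Gly-GCC and Gln-TTG were the labels among the 10 most abundant that turned between share and RPM. Gln-CTG, for glutamine, had 8997 RPM at 256cell and 7052 RPM at 1cell, or -0.07 by share and 0.35 in RPM. Gly-GCC, for glycine, had 8823 RPM at 256cell and 7507 RPM at 1cell, or -0.18 by share and 0.23 in RPM. Gln-TTG, the other glutamine label, had 1699 RPM at 256cell and 1322 RPM at 1cell, or -0.06 by share and 0.36 in RPM. Gly-CCC, also among the 10, had 1621 RPM at 256cell and 1785 RPM at 1cell, and was below 0 by share (-0.56) and in RPM (-0.14).

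Initiator methionine tRNA, iMet-CAT, which starts every protein chain, had 103 RPM at 256cell and 131 RPM at 1cell. Its ratio was -0.75 by share (-0.94 to -0.57), -0.34 in RPM and -0.24 in a total without His-GTG. The egg had 246 RPM, so the initiator stood lower at each of the first 3 stages in turn, unlike elongator Met-CAT, which was highest at 1cell. Arg-CCT, at 77.3 RPM at 256cell and 110 RPM at 1cell (share -0.92), and Lys-TTT, at 11.4 RPM at 256cell and 16.9 RPM at 1cell (share -0.94, from 38 and 103 reads of 1 sequence), were the other labels near the 2-fold line. Against egg both were above 0 by share, at 1.71 for Arg-CCT and 0.81 for Lys-TTT, and Arg-TCT, at -0.44 against 1cell, stood at 1.72.

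The study's title concerns 5′ fragments of tRNAs, and 9 tRNAs were taken here as their donors. These had 0 members at least 2-fold different and a median of -0.31 by share. Their sum, which includes His-GTG, went the other way, at 96.6% of the cytoplasmic reads at 256cell and 95.1% at 1cell. Over all 33 labels, 4 (12.1%) were at least 2-fold lower and the median was -0.48. With so few members a count of 0 is near that share. Among them Val-AAC had 418 RPM at 256cell and 387 RPM at 1cell, or -0.31 by share and 0.11 in RPM. Acidic labels (aspartate and glutamate) had a median of -0.53, basic labels (arginine, lysine and histidine) -0.53 with 1 of 7 lower by 2-fold, and amide labels (asparagine and glutamine) -0.07 with 1 of 3 lower, beside the same 12.1% over all labels. Counts of 1 in groups this small are not set apart from it. The sum of the basic labels, which includes His-GTG, went opposite to their median, at 90.3% at 256cell and 86.5% at 1cell. All 4 proline labels were below 0 by share and in RPM, with Pro-TGG at -0.45, Pro-GGG at -0.56 and Pro-CGG at -0.65 beside Pro-AGG. Over all 33 labels 28 were below 0 by share and 21 in RPM, so 4 of 4 is not set apart. In RPM Pro-TGG was at -0.03 (-0.10 to 0.03). In a total without His-GTG Pro-TGG turned to 0.06, and with median-ratio scaling to 0.03. The type II tRNAs of leucine and serine, which have a long variable arm, had a median of -0.48 over 5 members, with 0 past 2-fold. Grouped by the first anticodon base, the medians were -0.49 for A, -0.53 for C, -0.56 for G and -0.45 for T.

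Anticodons under the mean of 10 RPM were 5. Tyr-GTA, for tyrosine, was at 0.902 RPM at 256cell and 6.89 RPM at 1cell, which is 3 reads against 42. Its log2 share ratio was -2.47 with a counting interval of -5.68 to -1.70, and its 256cell count sat at the 3-read limit. Leu-TAG, Ala-TGC, Thr-AGT and Trp-CCA ran from 0.17 for Leu-TAG to -0.63 for Trp-CCA, and the interval of each of these 4 included 0.

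In some labels, forms chosen after values were seen ranged more widely than the labels did, as the bases at single positions show. Reads of each label were laid on its lead sequence, the most abundant read extended by exact overlaps of at least 50 nt, with up to 3 substitutions and no gaps. Reads that could not be placed were left out, so base percentages are of the placed reads that cover a position. Placed reads held 78.9% of the Asn-GTT RPM at 256cell and 89.0% at 1cell. In Ser-GCT they held 63.0% at 256cell and 68.3% at 1cell. Across 20 labels, 1372 positions were covered by at least 100 RPM in both libraries. The share of the lead base was at least 5 percentage points higher at 256cell at 12 of these positions (0.875%) and at least 5 points lower at 6 (0.437%). The 12 lay in 9 labels and the 6 in 4 labels.

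Asn-GTT held the widest of these. Positions were counted on the lead sequence from 1 at its 5′ end. At position 21 the lead base G made up 49.1% of the placed reads at 256cell (47.2 to 51.0) and 87.8% at 1cell (87.3 to 88.3). At position 20 the lead base T made up 49.4% at 256cell and 82.6% at 1cell, and at position 15 73.7% at 256cell and 92.1% at 1cell. Positions 20 and 21 of the lead are the capitals at positions 10 and 11 of the printed read, upstream of the anticodon.

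Sorting the placed Asn-GTT reads by these 2 bases split the label into forms with separate courses. The lead form, with T and G, had 381 RPM at 256cell and 2280 RPM at 1cell, a share ratio of -3.00 (-3.08 to -2.92). The form with C and T had 386 RPM at 256cell and 302 RPM at 1cell (-0.07 by share, -0.17 to 0.04, and 0.35 in RPM). The form with C and G had 22.0 RPM at 256cell and 153 RPM at 1cell (-3.16). From egg to 24hpf the lead form had 558, 2280, 381, 575, 481 and 76.6 RPM, and the C and T form 342, 302, 386, 1048, 1303 and 136 RPM. The lead form thus stood highest at 1cell, and the C and T form stood highest at shield and differed little over the first 3 stages. All Asn-GTT reads outside the lead form had 658 RPM at 256cell and 835 RPM at 1cell. Reads that could not be placed, with 219 RPM at 256cell and 343 RPM at 1cell, are among them.

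Arg-ACG showed a similar split at the base marked in its printed reads, also upstream of the anticodon. The lead base T made up 54.8% of the placed reads at 256cell (53.8 to 55.8) and 29.0% at 1cell (28.4 to 29.5). Reads with G there had 804 RPM at 256cell and 2546 RPM at 1cell (share -2.08, -2.14 to -2.02). Reads with T had 1454 RPM at 256cell and 1207 RPM at 1cell (-0.15 by share, 0.27 in RPM), and reads with A had 390 RPM at 256cell and 407 RPM at 1cell (-0.48). From egg to 24hpf the G form had 459, 2546, 804, 1630, 1822 and 2600 RPM, so 256cell lay between egg and 1cell. At the base before it, C18T on the lead sequence held 2.01% of the reads at 256cell (1.72 to 2.32) and 13.8% at 1cell (13.4 to 14.2).

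Gly-GCC held the opposite case, a rare form far above its 1cell level at 256cell. Reads with the A of G8A had 358 RPM at 256cell and 28.4 RPM at 1cell, a share ratio of 3.19 (3.01 to 3.48) and an RPM ratio of 3.61. From egg to 24hpf this form had 390, 28.4, 358, 39.5, 28.7 and 8.46 RPM. Egg and 256cell were the high libraries, and the other 4 held at most 39.5 RPM. The lead form with G had 8425 RPM at 256cell and 7444 RPM at 1cell (-0.24 by share, 0.18 in RPM), so the A form was 4.08% of the covering reads at 256cell (3.85 to 4.31) and 0.380% at 1cell (0.325 to 0.441).

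Gln-CTG, Lys-CTT and Glu-TTC each had a second form whose part of the label was smaller at 256cell. In Gln-CTG the base near the 3′ end was A in 4407 RPM at 256cell and 2452 RPM at 1cell (0.43 by share, 0.40 to 0.46), and G in 3598 RPM at 256cell and 3829 RPM at 1cell (-0.51, -0.54 to -0.47). The A form was 55.1% of the covering reads at 256cell and 39.0% at 1cell, and from egg to 24hpf it was 42.7, 39.0, 55.1, 64.6, 74.9 and 86.5%. In this label 256cell was the first stage at which the A form held the majority, and the share was higher at every later stage.

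In Lys-CTT the lead form with C had 13279 RPM at 256cell and 13138 RPM at 1cell (-0.40 by share, 0.02 in RPM), while the C62T form had 1081 RPM at 256cell and 2424 RPM at 1cell (-1.58, -1.64 to -1.53). In Glu-TTC the lead form with C had 10515 RPM at 256cell and 9997 RPM at 1cell (-0.34 by share, 0.07 in RPM), while the C16T form had 1460 RPM at 256cell and 2918 RPM at 1cell (-1.41, -1.46 to -1.37). The lower share of both labels was therefore not spread evenly over their reads. The egg library held 679 RPM of the Lys-CTT form and 1931 RPM of the Glu-TTC form, both below their 1cell levels.

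Glu-TTC, Gly-GCC and Asn-GTT held other positions past 5 points. Glu-TTC at position 20 went the other way from its C16T site, with the lead base at 81.3% at 256cell (80.9 to 81.7), 86.7% at 1cell and 81.8% in egg. At position 2 of Glu-TTC the lead base made up 90.7% at 256cell and 81.6% at 1cell, and at position 2 of Gly-GCC 65.0% at 256cell (60.1 to 69.8) and 52.1% at 1cell, in fewer covering reads. Asn-GTT at position 11 ran opposite to its 3 positions above, with the lead base at 90.1% at 256cell (88.8 to 91.2) and 75.9% at 1cell.

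The remaining positions lay in rarer labels and in Gly-CCC. The lead base of Ser-GCT at position 8 made up 55.4% at 256cell (50.9 to 59.9) and 37.7% at 1cell (34.7 to 40.8). That of Cys-GCA at position 46 made up 52.0% at 256cell and 40.9% at 1cell, and that of Pro-GGG at position 17 made up 81.8% at 256cell and 71.2% at 1cell, with position 28 at 82.0% at 256cell and 72.1% at 1cell. In Pro-GGG the changes G17C and C28T had the same RPM in every library, 128 at 256cell and 220 at 1cell. These 2 positions are therefore not separate differences. Gly-CCC at position 37 went the other way, with 49.2% at 256cell and 60.1% at 1cell, as did Cys-GCA at position 15, with 73.8% at 256cell and 80.1% at 1cell. Whether these bases mark different genes, read errors or remaining base modifications was not tested.

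His-GTG had 0 of 71 positions past 5 points, yet its rare forms moved by more than the label did. The lead form had 467420 RPM at 256cell and 331913 RPM at 1cell (0.08 by share). The G5A form had 13785 RPM at 256cell and 6885 RPM at 1cell (0.58, 0.57 to 0.60), or 2.84% of the covering reads at 256cell and 2.02% at 1cell. The T53C form had 664 RPM at 256cell and 80.4 RPM at 1cell (2.61, 2.49 to 2.77), and from egg to 24hpf 605, 80.4, 664, 108, 138 and 159 RPM. As with the A form of Gly-GCC, egg and 256cell were the high libraries. The C54G form, at the base beside it, had 236 RPM at 256cell and 650 RPM at 1cell (-1.87, -1.99 to -1.77).

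**Figure D2:**
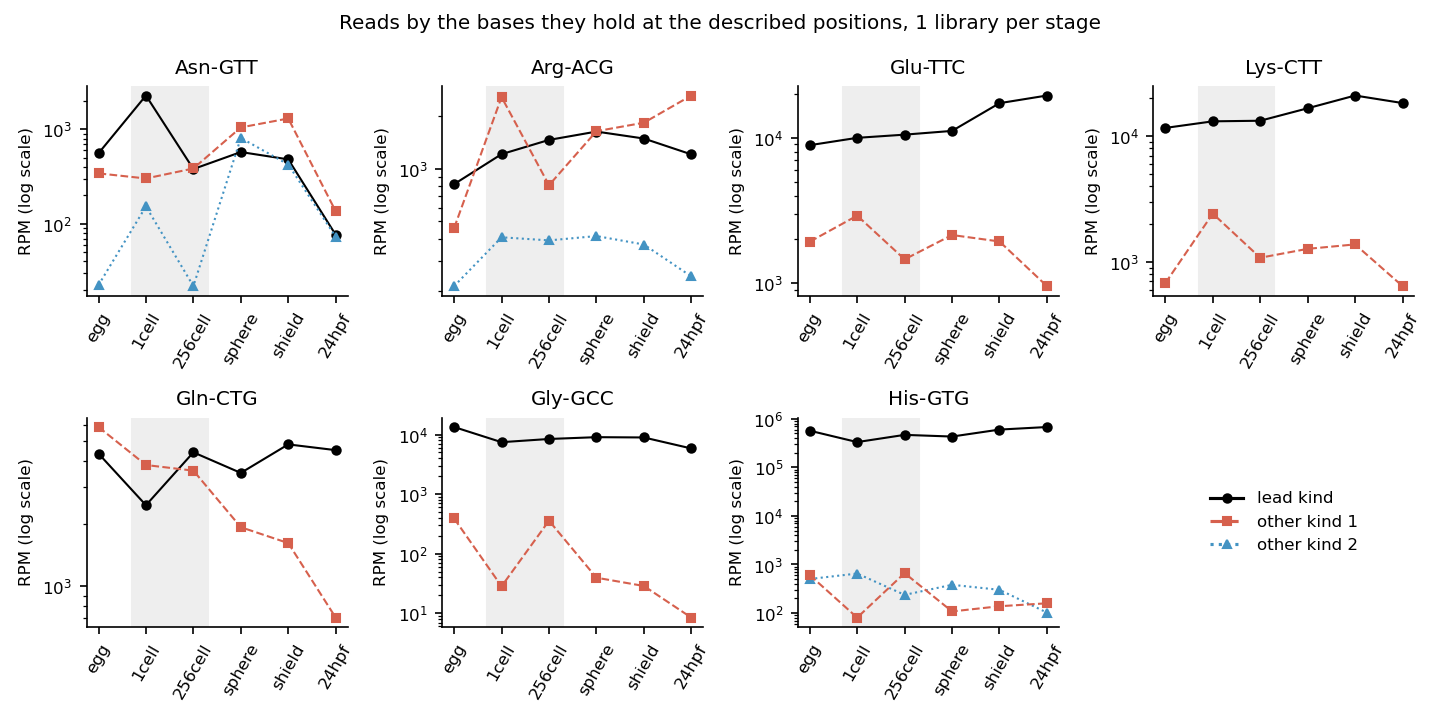
Levels in RPM (log scale) of the forms of 7 cytoplasmic tRNAs at the 6 stages, 1 library each, with 1cell and 256cell shaded. Black circles are the lead form and red squares the form with C and T (Asn-GTT), G (Arg-ACG and Gln-CTG), T (Glu-TTC and Lys-CTT), A (Gly-GCC) or T53C (His-GTG). Blue triangles are the form with C and G (Asn-GTT), A (Arg-ACG) or C54G (His-GTG). The red Gly-GCC and His-GTG forms are high in egg and at 256cell, at 358 and 664 RPM at 256cell against 28.4 and 80.4 RPM at 1cell.

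Single read sequences gave the finest view. Of 332 sequences averaging 100 RPM or more, 3 were at least 2-fold higher by share (0.904%) and 40 at least 2-fold lower (12.05%). In RPM 15 were higher (4.52%) and 13 lower (3.92%), so the higher ones were 6.98% of the 2-fold differences by share and 53.6% in RPM. The median was -0.20 by share and 0.21 in RPM. By label the 40 lower ones were 17 of 204 His-GTG sequences, 6 of 28 Glu-TTC, 6 of 21 Lys-CTT, 3 of 3 Asn-GTT, 3 of 19 Gln-CTG, 2 of 5 Arg-ACG, 1 of 26 Asp-GTC, 1 of 3 Gly-CCC and 1 of 2 Pro-GGG. The filter used the mean of the 2 compared libraries. The 3 Asn-GTT reads passed it only through 1cell, with 249 to 455 RPM there and 46.0 to 74.9 RPM at 256cell. The Asn-GTT double form, with 70.7 RPM at 256cell and 50.2 RPM at 1cell, did not pass. Other lower reads also passed only through 1cell. Among them were the 2 lower Arg-ACG reads, at 68.9 and 78.8 RPM at 256cell, and the lowest Glu-TTC read, at 35.2 RPM. The lower Asp-GTC read was above 100 RPM in each library, with 454 RPM at 256cell and 820 RPM at 1cell. The count of 3 of 3, and the counts of labels with such 1cell-only reads, are therefore not separate from the filter. The 3 sequences at least 2-fold higher by share were the Gly-GCC read with G8A and 2 His-GTG reads with the base change of T53C. They passed the filter only through 256cell, with 220 to 243 RPM there and 19.4 to 28.1 RPM at 1cell.

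The 5 most abundant reads were all His-GTG reads of 60 to 65 nt that differ only in where they start. The printed 63 nt lead read had 108408 RPM at 256cell and 74193 RPM at 1cell (0.13 by share). A read 1 base shorter at the 5′ end had 106835 RPM at 256cell and 69068 RPM at 1cell (0.21). Those of 65, 64 and 60 nt had ratios of -0.02, 0.29 and 0.18, so reads of the same body differed by start.

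The Gly-GCC read with G8A had the highest ratio of the 332, with 243 RPM at 256cell and 19.4 RPM at 1cell, from 808 and 118 reads (3.17, 2.95 to 3.52). Its lead read had 3512 RPM at 256cell and 2928 RPM at 1cell (-0.15). The His-GTG read with T53C had 233 RPM at 256cell and 28.1 RPM at 1cell (2.59, 2.4 to 2.88), and the same change in the read 1 base shorter stood at 2.74 (2.53 to 3.06). The next were far smaller: a 64 nt His-GTG read with the base change of G5A stood at 0.89, with 1540 RPM at 256cell and 623 RPM at 1cell.

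Glu-TTC held the lowest read, which is the C16T form with a second change and 1 more base at its 5′ end.
Glu-TTC, lowest read: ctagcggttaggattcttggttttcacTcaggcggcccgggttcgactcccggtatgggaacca
The capital marks C28T against a read of equal length. It had 35.2 RPM at 256cell and 243 RPM at 1cell (-3.17, -3.49 to -2.93), and the read without that change had 495 RPM at 256cell and 858 RPM at 1cell (-1.21). The printed Asn-GTT lead read had 74.9 RPM at 256cell and 455 RPM at 1cell (-3.00), its T10C and G11T double form 70.7 RPM at 256cell and 50.2 RPM at 1cell (0.07). Asn-GTT lead reads 1 base shorter and 1 base longer stood at -3.05 and -2.48. The lowest Arg-ACG read, of the G form, had 78.8 RPM at 256cell and 240 RPM at 1cell (-2.01).

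Reads of the same label lay furthest apart in His-GTG, from -2.01 to 2.74, followed by Gly-GCC from -0.61 to 3.17 and Glu-TTC from -3.17 to 0.47. Arg-ACG ran from -2.01 to -0.06 and Gln-CTG from -1.35 to 0.60. Asp-GTC, with 26 sequences, ran from -1.27 to -0.04, so all its compared reads were below 0 by share. Over all labels 219 of the 332 sequences were below 0 by share. In RPM some Asp-GTC reads stood above 0, up to 0.38. Of all 3021 listed sequences, 27 had 0 reads at 256cell and some at 1cell, none of them above 18.2 RPM at 1cell. Another 10 had 0 reads at 1cell and some at 256cell, none above 2.71 RPM, and 13 had 0 reads in both.

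**Figure D3:**
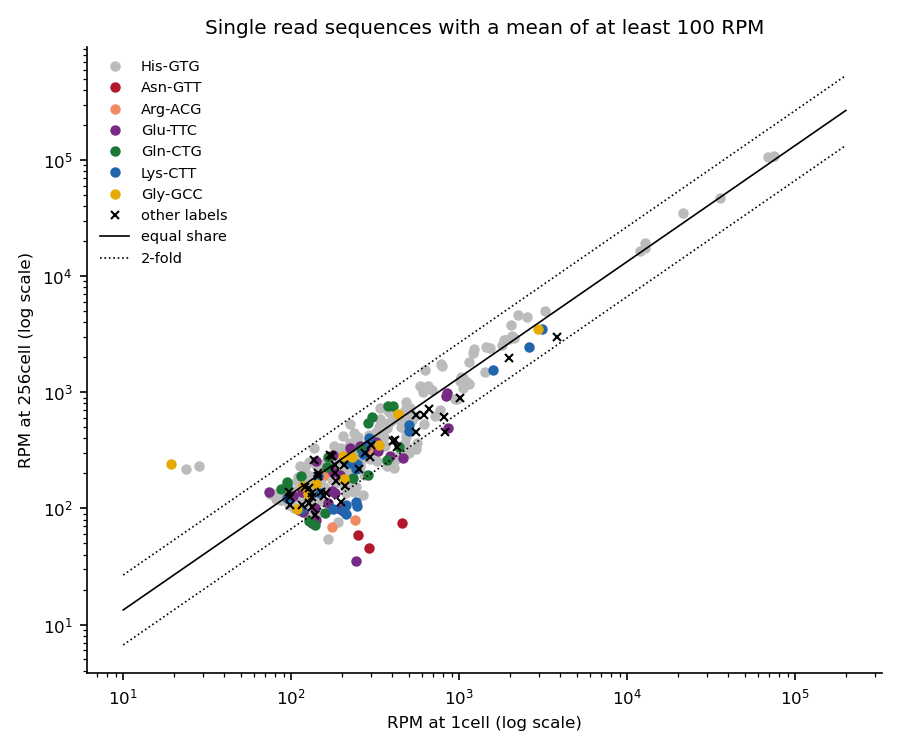
RPM at 256cell (vertical, log scale) against RPM at 1cell (horizontal, log scale) of the 332 cytoplasmic sequences averaging 100 RPM or more, coloured by label. The solid line marks an equal share and the dotted lines 2-fold. The 3 points far above the lines are 1 Gly-GCC and 2 His-GTG reads with 19.4 to 28.1 RPM at 1cell, and the 3 Asn-GTT points all lie below. The filter is a mean over these 2 libraries. Those 3 high points passed it only through 256cell. The Asn-GTT points, and some other points below the lower dotted line, passed it only through 1cell.

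Some labels hold reads that are 1 base away from a far more abundant read of another label. Of all listed sequences, 26 in 9 labels differed by 1 substitution from a read of another label with at least 10 times the mean RPM. All 3 His-ATG sequences were of this kind, each 1 base from a His-GTG read. Asn-GTT held 2 such sequences, also next to His-GTG, which made up 4.03% of its RPM at 256cell and 0.880% at 1cell. Without them Asn-GTT had 997 RPM at 256cell and 3088 RPM at 1cell, a share ratio of -2.05 in place of -2.00.

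Gly-CCC was split by this view. Its 4 single-base neighbours, led by a read with G26C against Gly-GCC, are 1 base from Gly-GCC reads in the anticodon itself.
Gly-CCC, G26C against Gly-GCC: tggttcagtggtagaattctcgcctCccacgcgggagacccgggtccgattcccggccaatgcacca
This read had 259 RPM at 256cell and 138 RPM at 1cell. The 4 neighbours together had 318 RPM at 256cell and 168 RPM at 1cell (0.50 by share), and the other Gly-CCC reads had 1303 RPM at 256cell and 1617 RPM at 1cell (-0.73). Pro-AGG held 5 neighbours of Pro-GGG reads, which made up 62.0% of its RPM at 256cell and 61.1% at 1cell. Their substitutions, G23A, G30C, A35G, G39A and C60T, all lie outside the anticodon. These 5 sequences thus have the same anticodon bases as the Pro-GGG read. Without them Pro-AGG had 18.6 RPM at 256cell and 41.2 RPM at 1cell. Its ratio was -1.52 without them and -1.48 among them.

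The share of reads ending in CCA differed little when pooled within or outside His-GTG, and more in some single labels. Reads ending in CCA made up 89.0% of the cytoplasmic reads at 256cell and 86.4% at 1cell, but within His-GTG they were 94.7% at 256cell and 94.5% at 1cell, and outside it 51.0% at 256cell and 50.3% at 1cell. Of 21 labels averaging 100 RPM or more, the CCA share was higher at 256cell in 8 and lower in 12, and Cys-GCA was at 100% in both libraries. Glu-TTC had 60.1% at 256cell (59.6 to 60.6) and 66.9% at 1cell (66.6 to 67.3), and Asn-GTT 82.2% at 256cell and 87.0% at 1cell. Val-TAC went the other way, with 61.6% at 256cell (58.6 to 64.5) and 50.6% at 1cell (47.9 to 53.3). Reads of at least 70 nt, near the length of a complete tRNA, were 0.409% of the cytoplasmic reads at 256cell and 0.850% at 1cell. Outside His-GTG they were 3.01% at 256cell and 4.48% at 1cell, and within it 0.024% at 256cell and 0.033% at 1cell.

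The mitochondrial tRNAs together took up similar parts of the 2 libraries. They supplied 241621 RPM at 256cell and 235020 RPM at 1cell, or 24.2% and 23.5% of all reads as deposited. These parts would be smaller if mitochondrial reads were counted more than once. Among reads found in 1 of the tables they were 30.0% at 256cell and 35.7% at 1cell (log2 -0.25), and without His-GTG 76.9% at 256cell and 75.2% at 1cell (0.03). The direction thus turned with His-GTG in the total. Egg held 13.4% of its library in mitochondrial tRNAs.

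Within the mitochondrial table, 0 of 22 tRNAs (0%) were at least 2-fold higher by share and 1 (4.55%) at least 2-fold lower, and the counts in RPM were the same. The lower one was trnS1, a serine tRNA, with 13.2 RPM at 256cell and 29.2 RPM at 1cell, from 44 and 178 reads (-1.13, -1.69 to -0.70). The interval, which takes every counted read as separate, lay on 1 side of 0 for 20 of the 22. The median of the 22 was -0.08 by share and -0.04 in RPM, so the 2 scales nearly coincide in this table.

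The most abundant mitochondrial tRNA, trnV for valine, had 109016 RPM at 256cell and 120478 RPM at 1cell, which is 45.1% and 51.3% of the mitochondrial reads (-0.18, -0.19 to -0.18). trnL2, a leucine tRNA, had 61044 RPM at 256cell and 41943 RPM at 1cell (0.50, 0.49 to 0.51). trnR, for arginine, had 21976 RPM at 256cell and 22158 RPM at 1cell (-0.05). trnH, for histidine, had 19440 RPM at 256cell and 13064 RPM at 1cell (0.53), and trnN, for asparagine, had 10816 RPM at 256cell and 15085 RPM at 1cell (-0.52). Among these 5, trnL2 and trnH stood higher at 256cell by share and in RPM, and trnV and trnN lower. With egg in the place of 1cell the share ratios were 0.52 for trnV, -0.67 for trnL2, 0.01 for trnR, 0.23 for trnH and 0.03 for trnN, so trnV, trnL2, trnR and trnN changed sign.

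The highest ratio was that of trnS2, the other serine tRNA, at 0.82 (0.63 to 1.03), with 125 RPM at 256cell and 68.3 RPM at 1cell. trnA, for alanine, stood at 0.70, with 2273 RPM at 256cell and 1363 RPM at 1cell. trnP, for proline, stood at 0.68 with 1133 RPM at 256cell and 687 RPM at 1cell, and trnW, for tryptophan, at 0.57 with 1366 RPM at 256cell and 895 RPM at 1cell. Besides trnS1, the lowest was trnM, for methionine, at -0.85 with 2244 RPM at 256cell and 3922 RPM at 1cell. trnY, for tyrosine, followed at -0.77 with 329 RPM at 256cell and 547 RPM at 1cell, and trnI, for isoleucine, at -0.72 with 1182 RPM at 256cell and 1889 RPM at 1cell. The 1cell library was the highest of the first 3 stages for trnM, trnY and trnI, with 1148, 101 and 675 RPM in egg, and their ratios against egg were 0.12, 0.85 and -0.04. For the 4 highest, egg lay between in RPM, at 104 for trnS2, 1587 for trnA, 881 for trnP and 1028 for trnW. Against egg all 4 were below 0 by share, at -0.59 for trnS2, -0.33 for trnA, -0.48 for trnP and -0.44 for trnW. Of the 22 tRNAs, 15 changed sign with egg in the place of 1cell.

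Neighbouring mitochondrial genes had ratios on both sides of 0. In the cluster of trnI, trnQ and trnM the ratios were -0.72, 0.44 and -0.85, and in the cluster of trnW, trnA, trnN, trnC and trnY they were 0.57, 0.70, -0.52, -0.31 and -0.77. The 13 tRNAs of the heavy-strand list had a median of -0.10 and the 7 of the light-strand list a median of 0.44, with ranges of -0.85 to 0.57 and -0.77 to 0.70 that overlap. Their sums went the other way from these medians. The heavy-strand list held 93.1% of the mitochondrial reads at 256cell and 91.7% at 1cell. The light-strand list held 6.86% at 256cell and 8.23% at 1cell. trnS1 and trnS2 are in neither list, since the anticodon cannot be read from either name.

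**Figure D4:**
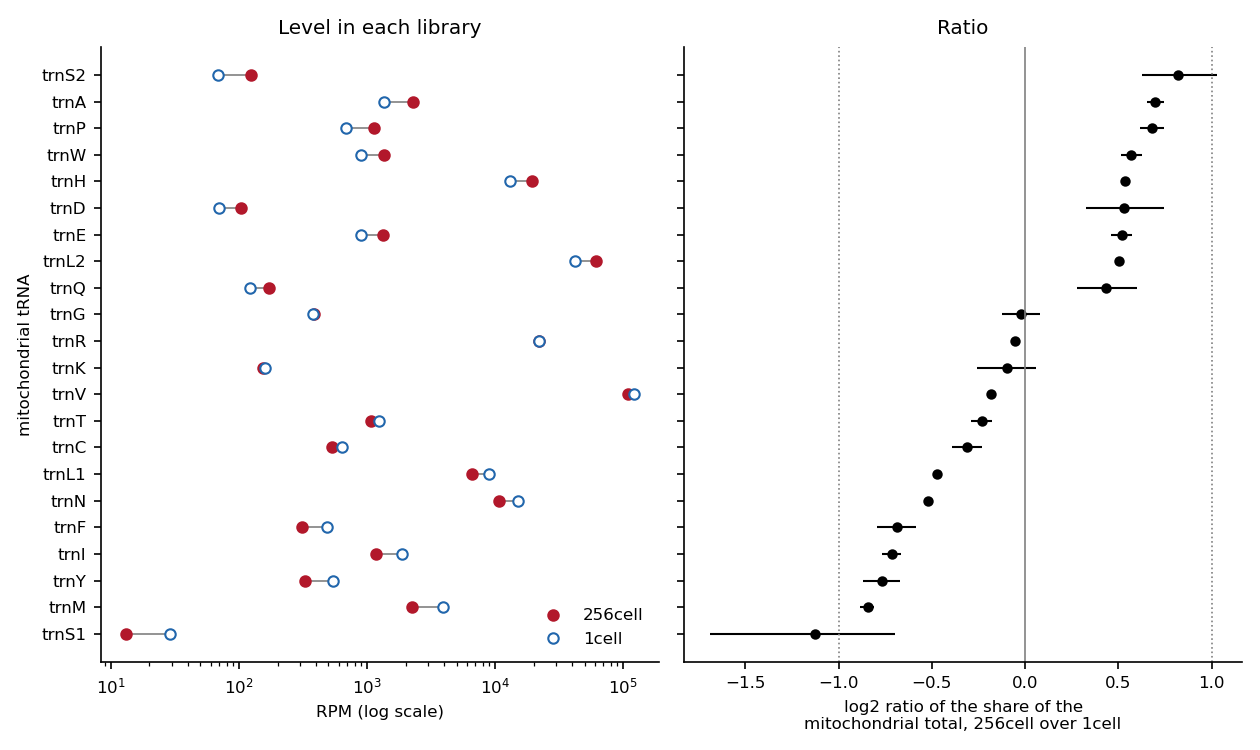
Left, RPM (log scale) of each of the 22 mitochondrial tRNAs at 256cell (filled) and 1cell (open), 1 library each. Right, log2 ratio of the share of the mitochondrial total, 256cell over 1cell, with 95% counting intervals and dotted lines at 2-fold. The ratios run from -1.13 for trnS1 to 0.82 for trnS2, and the most abundant, trnV, is at -0.18.

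Set beside the steps around it, the interval from 1cell to 256cell was of middle size for the cytoplasmic anticodons by share, and close to the step after it in RPM. The median size of the log2 share difference over the 33 labels was 0.98 from egg to 1cell, 0.48 from 1cell to 256cell and 0.24 from 256cell to sphere. In RPM these were 0.48, 0.26 and 0.25, and in a total without His-GTG, over 32 labels, 0.55, 0.29 and 0.19. By share the numbers at least 2-fold higher and lower were 15 and 0 in the first step, 0 and 4 in the second, and 2 and 0 in the third. For the mitochondrial tRNAs the median sizes were 0.64, 0.52 and 0.17 in the same order, and for the 332 sequences 0.60, 0.35 and 0.30. In RPM they were 1.00, 0.56 and 0.23 for the mitochondrial tRNAs and 0.55, 0.41 and 0.27 for the sequences. Neighbouring steps share a library, and the 1cell library enters the first 2 of them.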

How the data were processed

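The authors deposited a cytoplasmic table (read sequence, amino acid, anticodon) and a mitochondrial table (gene), both in RPM, per the names of the deposited columns and tables. Per the labels' protocols, RNA of 60 to 120 nt was cut from a gel, deacylated, end-repaired with T4 PNK and treated with ALKB enzymes (the sample descriptions give 60 to 100 nt). The submitters' processing notes name cutadapt 3.4, Bowtie2 2.4.2 and the build GRCz11. What each tool did, how a read got its label and how shared reads were treated is not given in the sources used here. Reads shared by near-identical tRNA genes may therefore be split between labels.

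Every RPM value was a whole multiple of the value of 1 read (100% within 0.01 reads), which gave library totals and read counts. The mitochondrial counts were nearly all even, so reads of that table may have been counted more than once. With 1 library per stage no test was made, and differences are described by size. The sum of a label plus 1 RPM was taken as a share of the table total. Ratios on this log2(value + 1 RPM) scale understate the difference of rare tRNAs. Shares have exact Clopper-Pearson intervals and ratios exact binomial intervals, which use the reads without the added 1 RPM, both at 95%. Anticodons needed a mean of 10 RPM and single sequences 100 RPM over the 2 libraries.

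Named anticodons were the 10 most abundant, those past 2-fold or the 5 most extreme, the 9 taken as donors of 5′ fragments and both methionine labels. Named single sequences were the 5 most abundant, 5 highest and 5 lowest, and the extremes of the 5 labels with the widest spread. Named mitochondrial tRNAs were the 5 most abundant, 4 highest and 4 lowest. Other labels and forms are named to account for the rest, and base forms and single-base neighbours were chosen after values were seen. The members and lists were chosen with earlier results of these data known. The alternatives tried were other scalings, pseudocounts and filters, CCA-ending or long reads only, and egg in the place of 1cell. The calculations were checked on simulated data (Python 3.11.15, numpy 2.4.6, pandas 2.3.3, scipy 1.17.1).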

Additional observations from a re-analysis of the deposited data

How the results depend on the processing

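No paired analysis was possible because each stage has 1 library. Of the 33 anticodons, 4 were at least 2-fold lower and 0 higher at 256cell. The count lower was 2 of 21 with a filter of 100 RPM, and 1 with only reads of at least 70 nt, again with fewer anticodons compared. With egg in the place of 1cell, 1 was lower and 3 higher. With egg 25 of the 33 anticodons changed sign, 24 of them to above 0, and 15 of the 22 mitochondrial tRNAs. All 4 anticodons lower by 2-fold were among them, with Arg-ACG at 1.06, Pro-AGG at 0.036, Met-CAT at 0.77 and Asn-GTT at 0.081, and the cause was not tested. Over all alternatives with a value Asn-GTT ran from -2.75, with only reads of at least 70 nt, to 0.081 with egg. For the 332 single sequences RPM gave 15 higher and 13 lower in place of 3 and 40, and a filter of 10 RPM, with more sequences compared, gave 13 higher and 350 lower. The 1 mitochondrial tRNA lower by 2-fold was 0 with egg and 0 with a pseudocount of 10 RPM. The mitochondrial part of the listed reads, at -0.25, was 0.040 against the whole library, 0.032 without His-GTG and 0.83 with egg. Chosen after seeing the data, a coverage of 1000 RPM left 5 positions with a higher and 2 with a lower share of the lead base in place of 12 and 6, with fewer positions compared, and egg in the place of 1cell gave 3 higher. The smaller 256cell library sets the depth limit, at 0.902 RPM for 3 reads.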
